A study of Mus musculus with 16 samples.

Results

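The genes described here are 32 markers of the brain vessel wall, 23 of endothelial cells and 9 of mural cells, the pericytes and smooth muscle cells that wrap the endothelium. They were picked by gene symbol and make up 32 of the 53801 genes in the deposited count table. RNA-seq data were collected from cortical and striatal tissue of 9 mice of the strain C57BL6/J-129sv at postnatal day 10 (P10), in 16 libraries. Control mice were Trrap Fl/+; Camk2-Cre tg, so that 1 Trrap allele was floxed, and Trrap-FBΔ mice were Trrap Fl/Fl; Camk2-Cre tg, with floxed alleles only. Both groups carried the Cre transgene, and the controls therefore also carried 1 allele that Cre can delete. Cre is driven by the Camk2a promoter, which is active in forebrain pyramidal neurons, and the vessel cells themselves are not its described target. TRRAP is a cofactor of histone acetyltransferases, and the comparison asks how the P10 forebrain transcriptome differs when it is deleted in neurons. The mice are separate animals, so that p-values of the tests within 1 tissue measure the spread between animals. In the tests across tissues, 7 of the 9 mice gave both tissues. The main fit treated these libraries as separate, and a fit with the mouse as a block was an alternative. Each of the 4 groups held 4 libraries, from mice 55, 58, 63 and 64 for the control cortex, mice 58, 63, 64 and 65 for the control striatum, and mice 57, 59, 60 and 61 for both Trrap-FBΔ tissues. Values of single libraries are given below in this order of mice. Among controls, mice 55 and 63 were female and mice 58, 64 and 65 male. Among Trrap-FBΔ mice, 57, 59 and 61 were female and 60 was male. Sex was therefore not balanced between the genotypes, least of all in the striatum.

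Endothelial cells of the brain form the blood-brain barrier, with tight junctions between neighbouring cells, a set of transporters in their membranes and few vesicles. Their growth is driven by VEGF acting on Kdr, their stability by angiopoietin acting on Tek, and their barrier program by the ligands Wnt7a and Wnt7b, which come from neural cells. Pericytes are recruited to the endothelium by Pdgfb, which endothelial cells release and which acts on Pdgfrb of the pericyte, whereas the smooth muscle of arteries and arterioles carries the contractile proteins encoded by Acta2 and Tagln.

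The libraries held between 28743866 and 48761429 counted reads. All 32 members passed the filter on low counts in both tissues, and the smallest count of any member in any library was 45, for Des. Levels are given as CPM, the counts scaled to a library of fixed size, after TMM normalization, and a gene was called when edgeR's quasi-likelihood test gave a p under 0.05 after Benjamini-Hochberg adjustment over all genes tested. The targeted gene Trrap was at 153 ± 15.6 CPM in control and 135 ± 10.3 CPM in Trrap-FBΔ cortex, and at 146 ± 5.73 and 141 ± 5.88 CPM in the striatum (SD, n = 4 each). Counts over the whole Trrap gene did not separate the groups (edgeR, cortical adjusted p = 0.083 and striatal adjusted p = 0.52), so the directions below rest on the genotype labels. The paper reports that Trrap was efficiently deleted in these mice at this age, and cites protein blots and qPCR for it. Slc17a7, the vesicular glutamate transporter of cortical neurons, was lower and Gad1, the GABA-synthesizing enzyme abundant in striatal neurons, was higher in the striatum than in the cortex, by -2.17 and 0.77 on the log2 scale. In bulk tissue, fewer cells of a type and less RNA per cell cannot be told apart.

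Per length of the transcript, the most abundant member in the control cortex was Rgs5, a regulator of G-protein signalling in pericytes, at 52.5 RPKM (CPM divided by the exon length in kilobases). Next came the tight junction protein gene Cldn5 at 31.8 RPKM, the pericyte-secreted Vtn at 27.3 RPKM, the lipid transporter gene Mfsd2a at 20 RPKM and the glucose transporter gene Slc2a1 at 14 RPKM. The endothelial receptors were lower and close to each other, from 3.62 RPKM for Flt1 to 7.59 RPKM for Eng. Emcn at 1.14 RPKM and Des at 0.471 RPKM were at the bottom of their groups. All defining markers of both cell types were thus detected in the control libraries. The spread between control mice was larger in the striatum, where the median coefficient of variation was 12.9% over the endothelial and 15% over the mural genes, than in the cortex, with 8.85% and 10%.

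**Figure D1:**
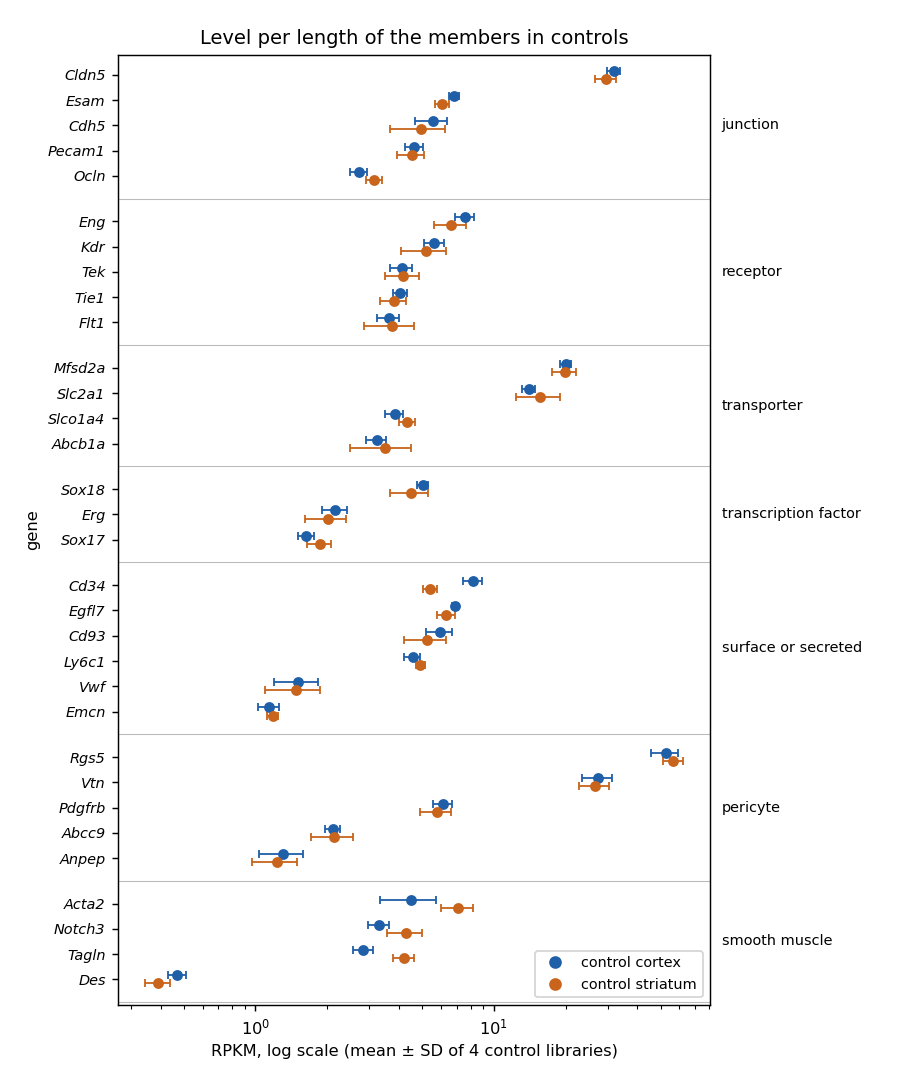
Mean RPKM (log axis, bars: SD of 4 control libraries) of the 32 members in the control cortex and the control striatum, grouped by role. Rgs5 is the most abundant member at 52.5 RPKM in the cortex, and Acta2, Tagln and Notch3 lie further right in the striatum, while Cd34 lies further left.

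The promoters of 5 members are shown because the study examined the transcription factor Sp1, which binds GC boxes. The windows are those of RefSeq on build GRCm38.p6, from 250 bases before to 50 bases after the transcription start, and 23 of the 32 members matched one by symbol. Rgs5, Kdr and Abcc9 are members with low values in the libraries labelled Trrap-FBΔ, Acta2 is a contractile gene, and Slc2a1 was added after its values were seen, as a transporter that was not lower. Capitals mark the GC box (GGGCGG or its reverse complement CCGCCC):
Rgs5, chr1:169655251-169655550, plus strand: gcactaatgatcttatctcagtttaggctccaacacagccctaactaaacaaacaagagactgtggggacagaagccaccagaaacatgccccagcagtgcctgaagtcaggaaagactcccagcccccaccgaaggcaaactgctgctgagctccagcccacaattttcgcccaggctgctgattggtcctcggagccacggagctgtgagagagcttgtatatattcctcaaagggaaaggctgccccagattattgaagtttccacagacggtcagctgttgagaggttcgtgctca
Kdr, chr5:75978406-75978705, minus strand: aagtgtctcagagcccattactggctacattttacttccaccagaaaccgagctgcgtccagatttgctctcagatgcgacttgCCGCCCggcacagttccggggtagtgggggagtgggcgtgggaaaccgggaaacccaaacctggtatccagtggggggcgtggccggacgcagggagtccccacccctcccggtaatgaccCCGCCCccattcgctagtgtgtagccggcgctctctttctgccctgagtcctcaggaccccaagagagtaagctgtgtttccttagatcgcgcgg
Abcc9, chr6:142702225-142702524, minus strand: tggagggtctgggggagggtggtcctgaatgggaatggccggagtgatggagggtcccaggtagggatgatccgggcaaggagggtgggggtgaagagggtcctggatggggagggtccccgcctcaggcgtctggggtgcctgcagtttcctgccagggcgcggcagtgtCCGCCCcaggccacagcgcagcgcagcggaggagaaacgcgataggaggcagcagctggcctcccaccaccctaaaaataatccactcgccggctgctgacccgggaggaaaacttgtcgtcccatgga
Acta2, chr19:34255324-34255623, minus strand: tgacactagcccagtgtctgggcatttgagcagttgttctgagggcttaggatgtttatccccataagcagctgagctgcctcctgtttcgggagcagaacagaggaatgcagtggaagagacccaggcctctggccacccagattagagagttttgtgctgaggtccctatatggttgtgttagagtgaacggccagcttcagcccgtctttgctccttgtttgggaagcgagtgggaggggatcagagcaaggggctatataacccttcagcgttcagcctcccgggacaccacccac
Slc2a1, chr4:119108495-119108794, plus strand: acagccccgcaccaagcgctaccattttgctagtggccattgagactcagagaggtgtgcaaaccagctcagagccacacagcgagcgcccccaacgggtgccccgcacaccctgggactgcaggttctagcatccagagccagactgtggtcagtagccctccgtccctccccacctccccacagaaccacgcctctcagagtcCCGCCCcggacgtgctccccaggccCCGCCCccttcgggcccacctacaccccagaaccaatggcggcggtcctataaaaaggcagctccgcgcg

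The GC box was found in a window of 11 of the 23 members, and in 38.2% of all genes with a window. It was there in 5 of the 11 members that were lower in the cortex and in 6 of the 12 others. The Rgs5 window, of the most abundant member, holds 0 GC boxes, and the windows of Kdr and of the transporter gene Slc2a1 hold 2 each. The CArG box, which serum response factor binds in smooth muscle genes, was counted only in a strict form, CC and GG around 6 letters A or T. This strict form was in 0 of 23 members and in 1.81% of all genes. Sites with another letter in between were not counted, such as ccctatatgg and ccttgtttgg in the Acta2 window. The ETS core CCGGAA was in 2 of the 23 members and 16.7% of all genes, and the TATA box TATAAA in 5 of the 23 members and 15.7% of all genes, counted on both strands. A motif match is a description of the letters in this window, and its absence says nothing about the factor.

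In the cortex, endothelial genes were lower in the Trrap-FBΔ than in the control libraries. Of the 23 endothelial genes, 13 were lower, 1 was higher and 9 did not pass the test, whereas 17.6% of all 18268 genes tested were called lower and 15.7% higher. The median log2 fold change was -0.31 over the endothelial genes and 0.001 over all genes tested. In 11 endothelial genes, and in 12 of the 32 members, the 4 Trrap-FBΔ libraries all lay below the 4 controls, which was so for 16.7% of all genes. No member had its Trrap-FBΔ libraries all above the controls (0 of 32), which 16% of all genes had.

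The receptors on the endothelial surface were lower in the cortex in 5 of 5 cases. Kdr (ENSMUSG00000062960, chr5:75932827-75978458 of GRCm38), the main VEGF receptor, was at 54.1, 53.8, 43.7 and 51.1 CPM in the control and at 28.5, 36.2, 37.4 and 34.7 CPM in the Trrap-FBΔ cortices. The groups did not overlap, and mouse 57 was the lowest. This corresponded to a 1.48-fold lower level (log2 fold change -0.57, standard error 0.0912, adjusted p = 0.00085; all adjusted p-values are those of edgeR unless another tool is named). Eng (ENSMUSG00000026814, chr2:32646595-32682669), a co-receptor for TGF-β, was at 29.4, 34.6, 28.1 and 30.8 CPM against 19.9, 21.6, 22.5 and 23.5 CPM (log2 fold change -0.49, standard error 0.0759, adjusted p = 0.00066). Tie1 (ENSMUSG00000033191, chr4:118471191-118490061), the partner of the angiopoietin receptor, was at 19.7, 20.8, 18.1 and 21.1 CPM against 13.3, 13.8, 14.8 and 15.8 CPM (log2 fold change -0.47, standard error 0.0736, adjusted p = 0.00077). In both genes every Trrap-FBΔ library was below every control.

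Tek (ENSMUSG00000006386, chr4:94739289-94874976), the angiopoietin receptor, was at 21.5, 20, 16.4 and 19.3 CPM in the control and at 14.1, 15.9, 16.4 and 15.1 CPM in the Trrap-FBΔ cortices. Only a narrow gap lay between control mouse 63 and the highest Trrap-FBΔ library, with a log2 fold change of -0.33 (standard error 0.0855, adjusted p = 0.012). Flt1 (ENSMUSG00000029648, chr5:147561604-147726011), the VEGF receptor that also acts as a decoy, was at 48.3, 55.1, 42.4 and 49.5 CPM against 33.9, 43.5, 37.4 and 39.2 CPM. Its groups overlapped, with mouse 59 above control mouse 63, giving a log2 fold change of -0.34 (standard error 0.0865, adjusted p = 0.01). This call was lost in a limma-voom fit over all libraries with the mouse as a replicate block (adjusted p = 0.064), to which the blocked values below belong.

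Of the junction genes, 4 of 5 were lower in the cortex. Pecam1 (ENSMUSG00000020717, chr11:106654217-106750628), an adhesion molecule of endothelial contacts, was at 29.9, 31.4, 25.4 and 28.7 CPM in controls against 21.7, 23.7, 22.5 and 21.4 CPM. Esam (ENSMUSG00000001946, chr9:37528078-37538319), a further adhesion molecule, was at 18.5, 20.8, 19.4 and 19.1 CPM against 14.9, 15.5, 14.7 and 16.1 CPM. Neither gene had overlapping groups. Pecam1 changed by -0.37 (standard error 0.0714, adjusted p = 0.0024) and Esam by -0.35 (standard error 0.0602, adjusted p = 0.0013) on the log2 scale.

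Cldn5 (ENSMUSG00000041378, chr16:18776847-18778262), the main claudin of the barrier, was at 44.9, 48.6, 41.7 and 45 CPM in the control and 41.2, 35, 39 and 38.2 CPM in the Trrap-FBΔ cortices. Mouse 57 came within a small distance of control mouse 63, without overlap, and the change was smaller than that of the receptors (log2 fold change -0.23, standard error 0.0641, adjusted p = 0.016). Cdh5, the cadherin of adherens junctions, fell from 23.2 ± 3.55 to 17.6 ± 2.29 CPM (SD, n = 4 each, log2 fold change -0.41, adjusted p = 0.023, and 0.089 with the replicate block). Ocln, a second tight junction protein gene, was at 11.5 ± 0.924 and 10.6 ± 0.447 CPM and was not called (adjusted p = 0.22).

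Cd93 (ENSMUSG00000027435, chr2:148436640-148443563), a surface lectin of angiogenic endothelium, had the largest fold change of the members in the cortex. It was at 39.9, 44.8, 32.7 and 41.1 CPM in the control and at 23.5, 26.4, 25.4 and 27.3 CPM in the Trrap-FBΔ libraries, which lay close together and below all controls (1.55-fold lower, log2 fold change -0.63, standard error 0.0881, adjusted p = 0.00037). Emcn (ENSMUSG00000054690, chr3:137341067-137432185), a sialoglycoprotein of veins and capillaries, was at 5.48, 6.46, 5.87 and 6.9 CPM against 3.99, 4.5, 4.68 and 4.46 CPM (log2 fold change -0.49, standard error 0.0973, adjusted p = 0.0028). Its groups did not overlap either.

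Cd34 (ENSMUSG00000016494, chr1:194938819-194961279), a sialomucin of endothelial and progenitor cells, went the other way in the cortex. Its levels were 52.2, 58.6, 64.4 and 63.4 CPM in controls and 81.8, 72.1, 71.7 and 63.9 CPM in Trrap-FBΔ, with mouse 61 inside the range of the controls (log2 fold change 0.28, standard error 0.0808, adjusted p = 0.022). The call was lost without control mouse 55 or without control mouse 58 (largest adjusted p = 0.052). Mouse 63, the lowest control cortex for 16 of the 23 endothelial genes, was the highest control for Cd34. Which cells of the bulk tissue the Cd34 RNA came from was not tested. The secreted or surface genes Egfl7, Ly6c1 and Vwf were not called, with means of 24.6 ± 0.648 and 25.1 ± 2.29 CPM for Egfl7, 7.65 ± 0.588 and 7.73 ± 0.162 CPM for Ly6c1, and 24.2 ± 5.09 and 19.4 ± 3.75 CPM for Vwf, in control and Trrap-FBΔ cortex. Reads of Ly6c1 can be shared with its close paralog Ly6c2, which makes its count less certain.

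The transporters stood beside this with a median log2 fold change of 0.05. Mfsd2a, which carries lipids and holds back vesicle transport, fell from 45 ± 2.22 to 39.9 ± 1.5 CPM (log2 fold change -0.17, adjusted p = 0.025), and its call was lost with the replicate block (adjusted p = 0.11) and in 5 of the 8 fits that left out a library. The glucose transporter gene Slc2a1 was at 49 ± 3 and 53.6 ± 5.06 CPM, the organic anion transporter gene Slco1a4 at 24.5 ± 2.14 and 26.7 ± 1.2 CPM, and the efflux pump gene Abcb1a, whose reads can be shared with its paralog Abcb1b, at 17.6 ± 1.66 and 17.5 ± 2.16 CPM. None of the latter was called (adjusted p = 0.18, 0.2 and 0.91), and their log2 fold changes were 0.13, 0.12 and -0.02. Of the transcription factors, Sox18 fell from 8.16 ± 0.436 to 6.59 ± 0.55 CPM (log2 fold change -0.31, adjusted p = 0.015, and 0.083 with the replicate block). Sox17 and Erg were at 7.78 ± 0.596 and 7.48 ± 0.907 CPM in controls and at 7.06 ± 0.392 and 6.34 ± 0.328 CPM in Trrap-FBΔ, and were not called (adjusted p = 0.2 and 0.082).

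**Figure D2:**
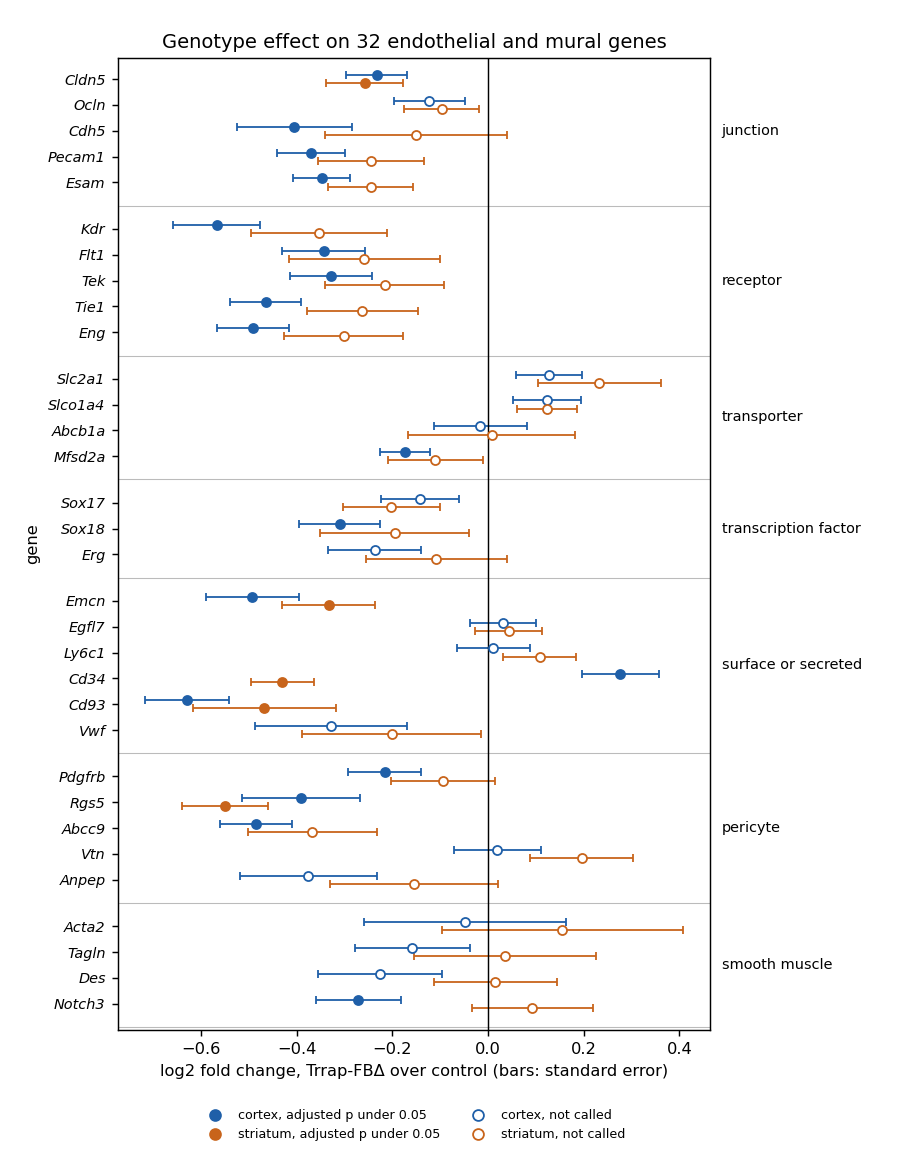
Log2 fold change of each member in Trrap-FBΔ against control (points, bars: standard error), in the cortex and the striatum. Filled points passed the adjusted p of 0.05. The 5 receptors all lie left of 0, the transporters scatter around 0, and Cd34 has filled points on both sides of 0.

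The mural genes of the cortex were lower in part. Of 9 genes 4 were lower, with a median log2 fold change of -0.23, beside 17.6% of all genes called lower and 15.7% higher. In 1 of the 9 genes all Trrap-FBΔ libraries lay below all controls, against 16.7% of all genes. The 3 pericyte genes among the 4 lower genes were Rgs5, Abcc9 and Pdgfrb. Abcc9 (ENSMUSG00000030249, chr6:142587862-142702315), the sulfonylurea receptor subunit of the pericyte potassium channel, was at 17.4, 19.5, 16.4 and 17.2 CPM in controls and at 11.4, 13.2, 13 and 12.9 CPM in Trrap-FBΔ, with no overlap (log2 fold change -0.49, standard error 0.0745, adjusted p = 0.00064). It was the mural gene whose call held in each of its 15 alternative fits. Rgs5 (ENSMUSG00000026678, chr1:169655501-169695813) was at 225, 267, 261 and 202 CPM against 218, 145, 200 and 165 CPM. Mouse 57 lay above control mouse 64, so that the groups overlapped (log2 fold change -0.39, standard error 0.124, adjusted p = 0.031). The call was lost with sex as a covariate and without control mouse 58 or 63 or mouse 59 or 61.

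Pdgfrb (ENSMUSG00000024620), the receptor by which pericytes are recruited, was at 34.7, 36.5, 29.3 and 33.1 CPM in the control and at 26.3, 28, 30.3 and 30.6 CPM in the Trrap-FBΔ cortices. The groups overlapped at control mouse 63, and the small change (log2 fold change -0.22, standard error 0.0763) was near the threshold with an adjusted p of 0.048, which became 0.11 with the replicate block. Vtn was at 55.5 ± 8.02 and 56.3 ± 2.84 CPM, and Anpep, an aminopeptidase of pericytes, at 5.4 ± 1.12 and 4.18 ± 0.395 CPM. Neither was called (adjusted p = 0.89 and 0.063).

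The smooth muscle gene Acta2 (ENSMUSG00000035783, chr19:34241090-34255590) was at 9.84, 13, 6.7 and 10 CPM in control and 6.3, 12.7, 10.3 and 9.2 CPM in Trrap-FBΔ cortex. The range of one group nearly covered that of the other (log2 fold change -0.05, standard error 0.212, adjusted p = 0.88). Tagln at 5.62 ± 0.547 and 5.05 ± 0.764 CPM and the intermediate filament gene Des at 1.77 ± 0.16 and 1.51 ± 0.0659 CPM were not called (adjusted p = 0.34 and 0.2). Notch3, the Notch receptor of smooth muscle and pericytes, fell from 26.8 ± 2.69 to 22.2 ± 2.28 CPM (log2 fold change -0.27, adjusted p = 0.035, and 0.11 with the replicate block). The count of lower mural genes was thus unstable: it was 2 with the replicate block and with sex as a covariate, 2 without control mouse 55 or 64 or without mouse 57, 60 or 61, and 1 without control mouse 58 or without mouse 59.

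Other cell types moved with genotype in the cortex too. Their counts stand beside 17.6% of all genes called lower and 15.7% called higher there. All 6 of 6 microglia markers were lower, with a median log2 fold change of -0.5 (Cx3cr1 -0.47, P2ry12 -0.54, Tmem119 -0.53 and Aif1 -0.56), and their summed level was between 256 and 289 CPM in control and between 182 and 231 CPM in Trrap-FBΔ libraries. Markers of blood were called in 0 of 6 cases by edgeR and by DESeq2 (0 at an unadjusted p under 0.05), with sums of 116 to 135 CPM in controls and 91.5 to 181 CPM in Trrap-FBΔ, and those of choroid plexus likewise in 0 of 6, with 159 to 485 CPM and 122 to 430 CPM. Fibroblast and meningeal markers were lower in 1 of 8 cases, namely Pdgfra, which also marks oligodendrocyte precursors, with sums of 258 to 343 CPM and 259 to 284 CPM. Of 6 astrocyte markers 2 were higher (Gfap 0.28 and Gja1 0.19) and 2 lower (Aqp4 -0.44 and Aldh1l1 -0.16). Their sums were 1810 to 1910 CPM and 1830 to 2080 CPM. Of 6 neuron markers 1 was lower (Map2 -0.34), with sums of 5670 to 6310 CPM and 5440 to 5930 CPM. No marker of these lists was at 0 in any library, and their part in the vascular result was not tested.

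**Figure D3:**
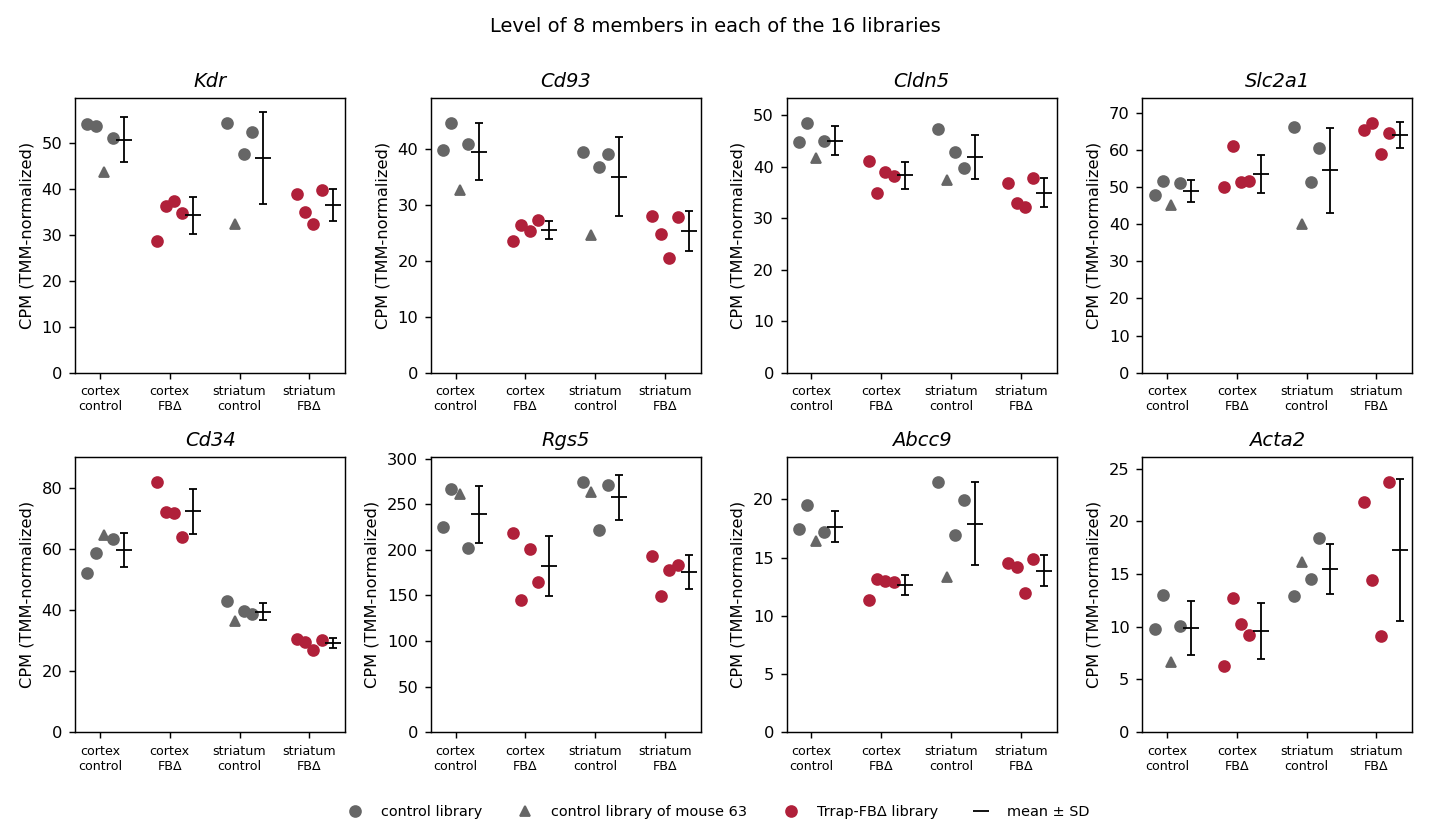
CPM of 8 members in each library, with the mean ± SD of the 4 libraries of a group. Triangles mark the control libraries of mouse 63. Kdr, Cd93 and Abcc9 separate the groups in the cortex, whereas in the striatum the triangles of these 3 genes lie among the Trrap-FBΔ points.

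In the striatum, fewer of the same genes passed the test. Of the 23 endothelial genes 4 were lower, namely Cldn5, Emcn, Cd34 and Cd93, and 0 higher, where 15.8% of all 18872 genes tested were called lower and 14.4% higher, so that the share of endothelial genes was near that of all genes. The median log2 fold change over the endothelial genes was -0.2, with 18 of 23 below 0, beside -0.0055 over all genes tested. Of the 9 mural genes only Rgs5 was lower, and their median log2 fold change was 0.02, a value whose sign turned with sex as a covariate (-0.06), with limma-voom (-0.01), with the replicate block (-0.02) and with 1 library left out (-0.12 to 0.04). The 4 Trrap-FBΔ libraries lay below the 4 controls in 3 of the 32 members, against 16% of all genes, and above them in 0 members, against 15.6% of all genes.

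Rgs5 had the largest fold change of the members in the striatum. It was at 274, 263, 221 and 271 CPM in controls and at 193, 150, 178 and 183 CPM in Trrap-FBΔ, with no overlap (1.46-fold lower, log2 fold change -0.55, standard error 0.0891, adjusted p = 0.0017). Its call held in each of 15 alternative fits. The other pericyte genes did not pass: Abcc9 was at 21.5, 13.4, 17 and 19.9 CPM against 14.5, 14.2, 11.9 and 14.9 CPM (log2 fold change -0.37, standard error 0.135, adjusted p = 0.063), and control mouse 63 lay inside the Trrap-FBΔ range. Abcc9 was called with the replicate block (adjusted p = 0.029).

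Pdgfrb was at 33.5, 24.5, 33.2 and 34.8 CPM in control and at 32.7, 26.8, 27.7 and 30.7 CPM in Trrap-FBΔ striata, and control mouse 63 was the lowest of all 8 libraries (log2 fold change -0.09, standard error 0.109, adjusted p = 0.54). Acta2 was at 12.9, 16.2, 14.5 and 18.4 CPM against 21.9, 14.4, 9.12 and 23.7 CPM. Its Trrap-FBΔ libraries spread over more than the whole range of the controls, with mice 57 and 61 above and mouse 60 below (log2 fold change 0.16, standard error 0.252, adjusted p = 0.68). Means in control and Trrap-FBΔ striata were 53.8 ± 7.8 and 61.6 ± 6.66 CPM for Vtn, 5.09 ± 1.1 and 4.55 ± 0.81 CPM for Anpep, 8.35 ± 0.865 and 8.56 ± 2.58 CPM for Tagln, 1.47 ± 0.173 and 1.49 ± 0.0776 CPM for Des, and 34.7 ± 5.73 and 36.9 ± 4.84 CPM for Notch3, with adjusted p-values between 0.2 and 0.97.

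Among the endothelial genes of the striatum, Cd34 separated the groups, at 43.1, 36.4, 39.7 and 38.6 CPM in control and 30.5, 29.5, 26.8 and 30.3 CPM in Trrap-FBΔ libraries (log2 fold change -0.43, standard error 0.0655, adjusted p = 0.0012). Emcn did so too, at 6.08, 6.19, 6.36 and 6.82 CPM against 5.84, 5.1, 4.46 and 4.82 CPM (log2 fold change -0.33, standard error 0.0976, adjusted p = 0.027). Cd93 was at 39.5, 24.6, 36.9 and 39.3 CPM against 28.1, 24.8, 20.5 and 27.9 CPM, and control mouse 63 lay below 3 of the 4 Trrap-FBΔ libraries (log2 fold change -0.47, standard error 0.15, adjusted p = 0.039). Cldn5 was at 47.3, 37.5, 42.8 and 39.8 CPM against 36.8, 33.1, 32.1 and 37.9 CPM, again with mouse 63 within the range of the Trrap-FBΔ libraries (log2 fold change -0.26, standard error 0.0814, adjusted p = 0.036).

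The receptors were not called in the striatum by edgeR (0 of 5, with 3 at an unadjusted p under 0.05 and 1 called by DESeq2), though all 5 had values below 0. Of all 18872 genes tested there, 7910 were at an unadjusted p under 0.05 in edgeR, and DESeq2 called 5951 genes. Kdr was at 54.4, 32.3, 47.5 and 52.3 CPM in control and at 38.9, 34.9, 32.3 and 39.8 CPM in Trrap-FBΔ striata (log2 fold change -0.35, standard error 0.142, adjusted p = 0.086). Flt1 was at 60.1, 34, 49 and 58.3 CPM against 47.4, 41.8, 35.7 and 43.2 CPM (log2 fold change -0.26, adjusted p = 0.24). In each of the 2 genes, control mouse 63 was as low as or lower than the lowest Trrap-FBΔ library, and the other 3 controls were above all of these.

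Eng at 31, 21.3, 27.9 and 27.2 CPM against 24.2, 19.7, 18.4 and 24.7 CPM, Tie1 at 19.6, 15.2, 20.1 and 20 CPM against 17.4, 14.6, 13.1 and 17.2 CPM, and Tek at 21.7, 15, 20.1 and 21.7 CPM against 19.4, 16.4, 14.5 and 17.2 CPM had the same pattern (adjusted p = 0.093, 0.11 and 0.21). Control mouse 63 lay within the range of the Trrap-FBΔ libraries in all of them. Pecam1 at 30.9, 23, 28.1 and 30.7 CPM against 25.5, 24, 19.6 and 25.9 CPM and Esam at 17.9, 15.6, 18.2 and 17.8 CPM against 15.5, 14.3, 12.5 and 16.2 CPM were not called either (adjusted p = 0.12 and 0.059, and 0.019 for Esam with the replicate block), and here too mouse 63 was the lowest control.

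The remaining endothelial genes of the striatum had means, in control and Trrap-FBΔ, of 13.3 ± 1.04 and 12.5 ± 0.843 CPM for Ocln, 20.8 ± 5.33 and 18.7 ± 3.38 CPM for Cdh5, 44.7 ± 5.21 and 41.3 ± 4.75 CPM for Mfsd2a, 19.1 ± 5.46 and 19.2 ± 0.988 CPM for Abcb1a, and 27.8 ± 2.07 and 30.3 ± 1.26 CPM for Slco1a4. Slc2a1 was at 54.6 ± 11.5 and 64.1 ± 3.59 CPM, with a log2 fold change of 0.23 and an adjusted p of 0.2. The transcription factors were at 8.87 ± 1.04 and 7.7 ± 0.671 CPM for Sox17, 7.27 ± 1.32 and 6.32 ± 1.18 CPM for Sox18, and 6.98 ± 1.36 and 6.45 ± 0.799 CPM for Erg. Egfl7 was at 22.6 ± 2.01 and 23.3 ± 0.911 CPM, Ly6c1 at 8.25 ± 0.375 and 8.89 ± 0.635 CPM and Vwf at 23.8 ± 6.09 and 20.7 ± 3.43 CPM. None of these genes passed the test, and their adjusted p-values lay between 0.15 and 0.98.

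1 control animal moved many of these values. The control striatum of mouse 63, the only female among the 4 control striata, was the lowest control for 19 of the 23 endothelial and 6 of the 9 mural genes, and its cortex was the lowest control for 16 and 8 of them. Its mean log2 level over the endothelial genes minus the mean of the control striata was -0.28, while the other control striata were at 0.16, 0.02 and 0.1 and the Trrap-FBΔ striata at -0.04, -0.19, -0.34 and -0.08. Without this library, 12 of the 23 endothelial genes were lower in the striatum with a median log2 fold change of -0.31, among them Kdr (-0.49, adjusted p = 0.0023), Flt1 (-0.41, adjusted p = 0.014) and Tek (-0.33, adjusted p = 0.026). Over all genes, that fit called 5769 lower or higher, and the main fit 5704. Leaving out any of the other 7 libraries instead gave 1 to 3 lower endothelial genes, with 1 without control mouse 64 or without mouse 59 or 60, 2 without control mouse 58 or 65 or without mouse 57, and 3 without mouse 61. With sex as a covariate 2 were lower, and with all 16 libraries in one fit 7 were. Sex and the animal itself cannot be told apart in this library.

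**Figure D4:**
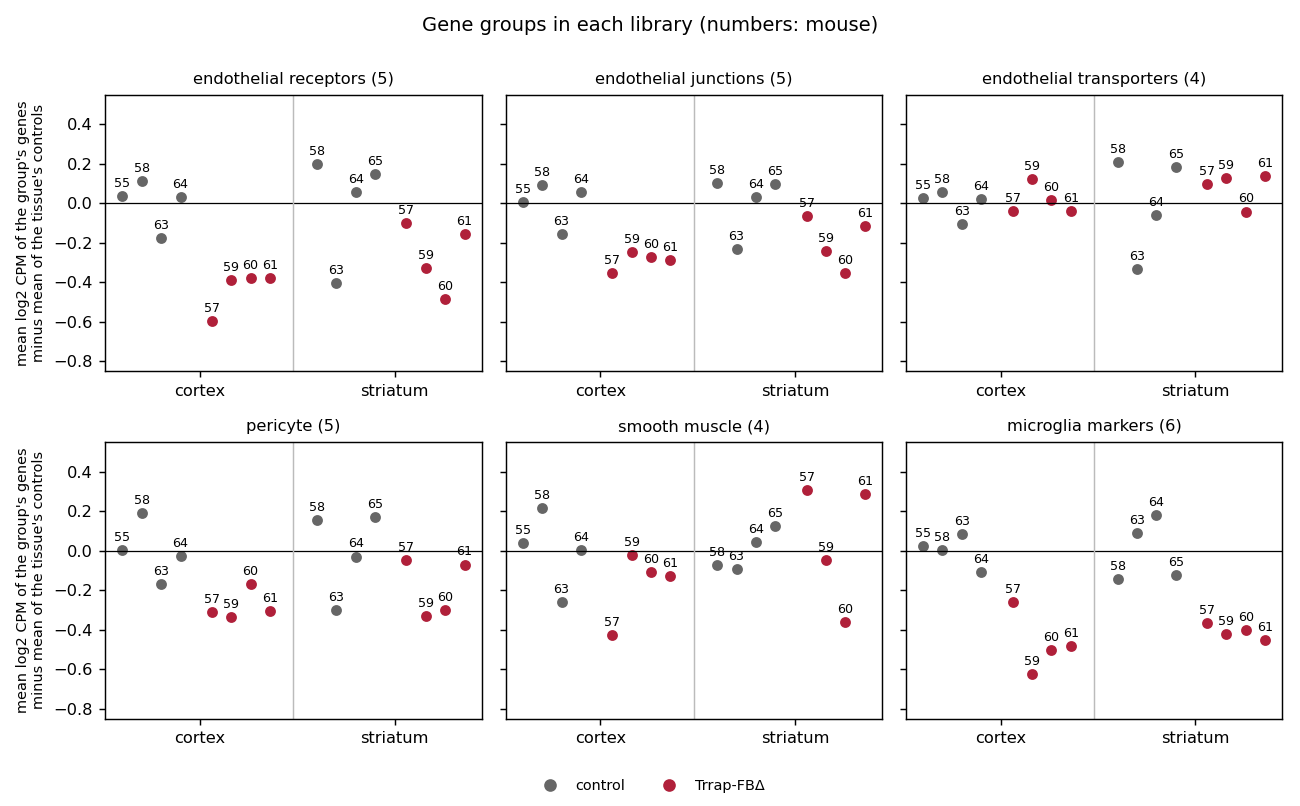
Mean log2 CPM of a gene group in each library minus the mean of the control libraries of the tissue (numbers: mouse). Receptors of all 4 Trrap-FBΔ cortices lie below all controls, mouse 63 is the lowest control in the receptors, junctions, transporters and pericyte genes, and in the microglia markers it is not.

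In the striatum, 5 of 6 microglia markers were lower (Cx3cr1 -0.38, P2ry12 -0.63, Tmem119 -0.48 and Aif1 -0.57 among them), with sums of 205 to 250 CPM in controls and 163 to 179 CPM in Trrap-FBΔ. This and the counts below stand beside 15.8% of all genes called lower and 14.4% called higher in this tissue. Choroid plexus markers were higher in 1 of 6 cases (Otx2), with a median log2 fold change of 0.56 and sums of 123 to 566 CPM against 296 to 753 CPM. Of 8 fibroblast and meningeal markers 2 were higher and 2 lower, with sums of 341 to 451 CPM and 347 to 390 CPM, and of 6 neuron markers 2 were lower (Map2 -0.25 and Slc17a7 -0.88), with sums of 4120 to 4360 CPM against 3480 to 3850 CPM. Blood markers were called in 0 of 6 cases by edgeR and by DESeq2 (0 at an unadjusted p under 0.05), with sums of 112 to 154 CPM and 108 to 135 CPM, and astrocyte markers were higher in 2 of 6 (Gfap 0.57 and Gja1 0.23), with sums of 2110 to 2310 CPM and 2190 to 2320 CPM. The blood sum of control mouse 63 was 154 CPM, the highest of the control striata. No marker was at 0, and the part of these cell types in the vascular values of the striatum was not tested.

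Set side by side, Cldn5, Emcn, Cd93 and Rgs5 were lower in both tissues, and 21 of the 32 members had values below 0 in both. Of the 117 other listed genes, 27 were lower in both tissues and 70 had values below 0 in both. The share of all genes for which this was so was not counted, so these counts have no background. The comparisons of the 2 tissues share mice, so that they are not independent of each other. The endothelial median went from -0.31 in the cortex to -0.2 in the striatum, the pericyte median from -0.38 to -0.16, and the smooth muscle median from -0.19 to 0.06. Whether the genotype effect differed between tissues was asked by an interaction term in a fit of all 16 libraries. It was called for 1 member, Cd34, with a difference of -0.71 on the log2 scale (striatum effect minus cortex effect, standard error 0.111, adjusted p = 0.011), where 0.242% of all 19438 genes were called with a lower and 0.195% with a higher effect in the striatum. In Cd34 the 4 Trrap-FBΔ cortices had a mean of 72.4 ± 7.35 CPM over 59.7 ± 5.59 CPM in controls, whereas the 4 Trrap-FBΔ striata had 29.3 ± 1.68 CPM under 39.5 ± 2.8 CPM. The call held with the mouse as a replicate block (difference -0.65, adjusted p = 0.032), and it was lost when sex within the striatum was added to the block (-0.64, adjusted p = 0.13), a fit chosen after seeing the data. The cells in which Cd34 differed were not tested. For the receptors the interaction ranged from 0.08 to 0.21 with adjusted p-values between 0.63 and 0.91, which does not show that the effects were alike.

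Between the tissues themselves, averaged over both genotypes, 3 of the 9 mural and 5 of the 23 endothelial genes were higher in the striatum and 2 endothelial genes were lower, where 30.9% of all 19438 genes were called higher and 29.6% lower, so that the mural share called higher was near that of all genes and the endothelial shares were below it. The mural genes called were Acta2, Tagln and Notch3 (log2 difference 0.75, 0.67 and 0.55, adjusted p = 0.0021, 0.00015 and 2.1e-05). Des, the other gene of the smooth muscle list, had a log2 difference of -0.15 (adjusted p = 0.15), and 0 of the 5 pericyte genes were called by edgeR or DESeq2 (0 at an unadjusted p under 0.05), with log2 differences from -0.03 to 0.08. The higher endothelial genes were Ocln (0.23, adjusted p = 0.0012), Slco1a4 (0.18, adjusted p = 0.003), Ly6c1 (0.15, adjusted p = 0.015), Slc2a1 (0.21, adjusted p = 0.031) and Sox17 (0.15, adjusted p = 0.047), and Egfl7 was lower by a small amount (-0.12, adjusted p = 0.044). Since 7 of the 9 mice gave both tissues, the fit was repeated with the mouse as a replicate block, in which the calls of Sox17 (adjusted p = 0.12) and Egfl7 (adjusted p = 0.064) were lost. That fit also called endothelial genes lower that the main fit had not called.

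Cd34 had the largest tissue difference of the members, with a 1.93-fold lower level in the striatum (log2 difference -0.95, standard error 0.056, adjusted p = 2.1e-10). Every striatal library was below every cortical one, in both genotypes. The 3 smooth muscle calls held in all fits tried. The number of higher endothelial genes was 2 without Trrap-FBΔ striatum of mouse 57 and 3 without any of the control cortices of mice 55 and 63, the Trrap-FBΔ cortices of mice 57, 60 and 61, the control striata of mice 58 and 65 or the Trrap-FBΔ striata of mice 59 and 61. The number of lower ones was 1 without the control cortex of mouse 55 or 58, the Trrap-FBΔ cortex of mouse 57, the control striatum of mouse 65 or the Trrap-FBΔ striatum of mouse 59, and 4 without the Trrap-FBΔ striatum of mouse 57 or 61. Fibroblast and meningeal markers were higher in the striatum in 7 of 8 cases and choroid plexus markers in 4 of 6, and their part in the level of the contractile genes was not tested.

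Genes for signals that act on these cells, and for their receptors and targets, were counted in the same way. Of 42 genes of the VEGF, angiopoietin, PDGF, Notch, Wnt and TGF-β, S1P and apelin pathways, which neurons, glia and vessel cells share, 22 were lower and 0 higher in the cortex, with a median log2 fold change of -0.21, and 15 were lower and 2 higher in the striatum, with a median of -0.17. Over all genes, 17.6% were lower and 15.7% higher in cortical libraries, and 15.8% were lower and 14.4% higher in striatal ones. Of the 42 genes, 12 were lower in both tissues, and the share of all genes lower in both was not counted. With 1 library left out, 14 to 23 were lower in cortical and 11 to 21 in striatal libraries, with the highest counts without mouse 63 and the lowest without control mouse 55 or 58 in the cortex, and 14 were lower in the cortex with sex as a covariate. Pdgfb, by which endothelial cells recruit pericytes, was at 32.1, 35.4, 33.4 and 39.3 CPM in control and at 19.1, 21.2, 20.9 and 23.1 CPM in Trrap-FBΔ cortices. In the striatum it was at 30.2, 28.5, 30.1 and 25.9 CPM against 14.5, 13, 14.2 and 15.9 CPM. The groups were far apart in both tissues, and mouse 63 was not the lowest control. Which cells of the bulk tissue the Pdgfb RNA came from was not tested. The change in Pdgfb was -0.74 in cortical libraries (standard error 0.0765, adjusted p = 6.7e-05) and -0.99 in striatal ones (standard error 0.0764, adjusted p = 6.9e-05), on the log2 scale.

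Of the VEGF ligands, Vegfa fell from 99.7 ± 3.09 to 73.4 ± 5.43 CPM in the cortex (log2 fold change -0.44, adjusted p = 0.00019) and from 101 ± 5.36 to 78 ± 3.41 CPM in the striatum (-0.37, adjusted p = 0.00084), and Vegfb fell by 0.35 and 0.25 on the log2 scale. Angpt1, the ligand that activates Tek, fell from 19.6 ± 2.15 to 15.8 ± 1.51 CPM in the cortex (-0.3, adjusted p = 0.027) and from 19.5 ± 1.26 to 14.6 ± 0.842 CPM in the striatum (-0.42, adjusted p = 0.0017). The barrier ligand gene Wnt7a was lower by -0.49 and -0.57 and Wnt7b by -0.24 and -0.55 on the log2 scale in the cortex and the striatum (adjusted p = 0.00063, 0.0032, 0.033 and 0.0014), together with the Norrin co-receptor gene Tspan12 (-0.2 and -0.26). The Notch ligand gene Jag1 (-0.47 and -0.36) and the Notch target Hey1 (-0.29 and -0.28), the BMP receptor gene Bmpr2 (-0.2 and -0.33), the ligand gene Apln (-0.57 and -0.84) and its receptor gene Aplnr (-0.68 and -0.46) were also lower in both tissues.

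Lef1, a transcription factor of Wnt signalling named after its values were seen, was lower in the cortex (-0.41, adjusted p = 0.045) and higher in the striatum (0.46, adjusted p = 0.049), and the interaction did not pass the test (difference 0.86, adjusted p = 0.11). Its cortical call was lost in 12 of the 15 alternative fits and its striatal call in 6. The other gene higher in the striatum was Reck (0.31, adjusted p = 0.0035), a Wnt7 co-receptor. Of the 42 signalling genes 0 passed the interaction test in edgeR, with 6 at an unadjusted p under 0.05, and 1 passed in DESeq2. Of all 19438 genes tested, 2347 were at an unadjusted p under 0.05 in edgeR, and 430 genes passed in DESeq2.

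**Figure D5:**
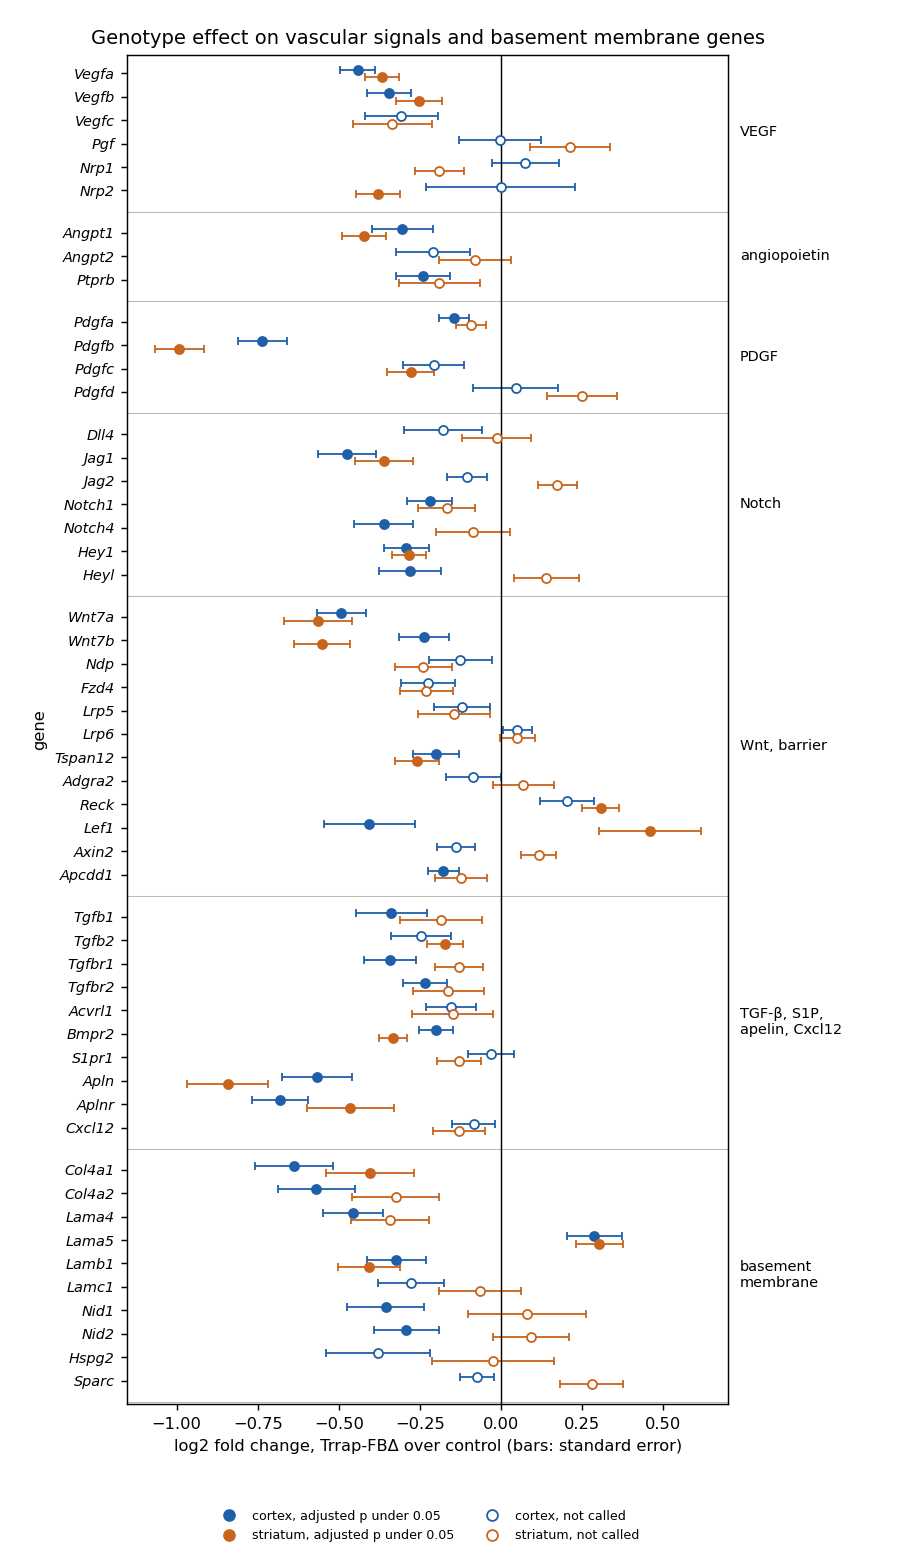
Log2 fold change of 42 signalling genes and 10 basement membrane genes in Trrap-FBΔ against control (points, bars: standard error), in the cortex and the striatum, with filled points for an adjusted p under 0.05. Pdgfb lies farthest left in both tissues, at -0.74 and -0.99, and Lama5 is the basement membrane gene with filled points right of 0.

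The basement membrane that endothelial cells and pericytes lay down together was lower in the cortex in 6 of its 10 genes, with a median log2 fold change of -0.34, and 1 gene was higher. Of all genes, 17.6% were called lower and 15.7% higher in that tissue. In the striatum 2 were lower and 1 higher, with a median of -0.05, which is near the 15.8% of all genes called lower and the 14.4% called higher there. With 1 library left out, 3 to 8 were lower in cortical and 1 to 4 in striatal libraries, and the highest counts came without mouse 63. Col4a1, a chain of type IV collagen, was at 173, 178, 129 and 179 CPM in control and 82.2, 113, 116 and 112 CPM in Trrap-FBΔ cortices (log2 fold change -0.64, adjusted p = 0.0021), and the lowest control was again mouse 63. In the striatum it was at 178, 108, 161 and 170 CPM against 125, 113, 103 and 125 CPM (-0.4, adjusted p = 0.047). Lamb1, a laminin chain, was lower in both tissues (-0.32 and -0.41), and Lama5, the laminin chain of mature vessels, was higher in both (0.29, adjusted p = 0.022 and 0.3, adjusted p = 0.011).

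Further markers of the same cells, from lists written with the members known, were counted too, beside 17.6% of all genes called lower in cortical and 15.8% in striatal libraries. Of 15 other endothelial genes 8 were lower in cortical and 4 in striatal libraries, and Slc38a5 (-0.64 and -0.62), a glutamine transporter gene, Tfrc (-0.49 and -0.5), the transferrin receptor gene that neurons also use, and the ETS factor genes Ets1 (-0.54 and -0.51) and Fli1 (-0.44 and -0.37) were lower in both. Of 12 other mural genes 4 were lower in cortical and 2 in striatal libraries, and Kcnj8 (-0.33 and -0.29), the pore partner of Abcc9, and the transcription factor gene Foxf2 (-0.46 and -0.44) were lower in both. The striatal share of these mural genes was near that of all genes. Without the control striatum of mouse 63, 8 of the other endothelial and 5 of the other mural genes were lower in the striatum. Over all genes, that fit called 5769 lower or higher, and the main fit 5704. The smooth muscle myosin gene Myh11, named after its values were seen, was not called in either tissue, with log2 fold changes of 0.18 and 0.18 and standard errors of 0.233 and 0.261.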

How the data were processed

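Per the labels, libraries were made with a stranded mRNA kit, and the submitters' processing notes name bcl2fastq 1.8.4, STAR 2.5.4b on GRCm38 and featureCounts 1.5.0. The deposited values are raw counts per Ensembl gene, without normalization or filter. Symbols, positions and exon lengths came from GENCODE M21 of this build, and 53706 of the 53801 identifiers had a symbol. Groups came from the genotype and tissue labels. In R 4.3.3, counts were filtered with filterByExpr, TMM-normalized and tested with edgeR 4.0.16 (quasi-likelihood) per tissue in 8 libraries, and over all 16 libraries for the tissue difference and the interaction, with adjustment over all genes tested. Alternatives were DESeq2 1.42.0, limma-voom (limma 3.58.1), upper-quartile scaling, no filter on low counts, sex as a covariate, all libraries in one fit, the mouse as a replicate block, and each library left out. The fits were tested on simulated data.

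The members and lists were chosen with earlier results of these data known. Values per library are given for the 12 members with the smallest p among those called in a genotype or interaction test and for Cldn5, Pdgfrb, Rgs5 and Acta2, and group means for the others. Other lists are named by genes called in the same direction in both tissues, up to 4 per list. Mice are biological replicates. Libraries of 1 mouse pair across tissues: their deviations from group means correlated with r from 0.0731 to 0.25 (median 0.235) in 7 mice, over 0.1 in 6, and from -0.184 to 0.128 (median -0.0804) between different mice, over 18742 autosomal genes. The block's estimated correlation was 0.208.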

Additional observations from a re-analysis of the deposited data

Results flagged for a closer look

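Of 128 groups of 4 libraries tested over the 32 members, 5 held a library far from the other 3 by Dixon's test at 95%, where chance flags about 1 in 20 groups. Tie1 in the control striatum of mouse 63 was at 15.17 CPM, with the others between 19.59 and 20.09 CPM, and Pdgfrb in the same library was at 24.47 CPM, with the others between 33.22 and 34.75 CPM. In the Trrap-FBΔ cortex of mouse 59, Slc2a1 was high at 61.08 CPM (others between 50.01 and 51.77 CPM) and Sox17 was low at 6.477 CPM (others between 7.199 and 7.339 CPM). Abcc9 in the Trrap-FBΔ cortex of mouse 57 was low at 11.38 CPM, with the others between 12.93 and 13.18 CPM.

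The genotype effect on Cd34 differed between the tissues by the interaction test, with -0.7075 on the log2 scale for the striatum effect minus the cortex effect. It was higher than in controls in the Trrap-FBΔ cortices and lower in the Trrap-FBΔ striata.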

How the results depend on the processing

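In the cortex, 9 (one fit over all libraries, and replicate block) to 14 endothelial genes were lower under the alternatives, and 11 to 14 with 1 library left out, when their median log2 fold change ranged from -0.33 to -0.21. Lower mural genes of the cortex numbered 2 with sex as a covariate, 2 in one fit over all libraries, 2 with the replicate block, and 1 to 4 with 1 library left out. In the striatum, lower endothelial genes numbered 2 with sex as a covariate, 7 in one fit over all libraries, 5 with the replicate block, and 1 to 12 with 1 library left out, where 12 needs the control striatum of mouse 63 to be absent. Lower mural genes there were 2 under DESeq2, no filter, one fit over all libraries and the replicate block, and 1 to 2 with 1 library left out. In the tissue difference, 1 endothelial gene was lower under upper-quartile scaling and with no filter, 3 with the replicate block, and with 1 library left out 1 to 4 were lower and 2 to 5 higher. The interaction of Cd34 was lost (0 endothelial genes called) with the replicate block plus sex within the striatum, and was kept in the other 22 fits. The cause of these shifts was not tested.

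Signs turned only in genes that were not called. In the cortex these were Abcb1a (0.0025 under upper-quartile scaling and 0.0147 with sex, -0.0721 to 0.0588 with 1 library left out), Acta2 (0.0575 with sex, -0.2005 to 0.1164), Egfl7 (-0.0266 to 0.0766), Ly6c1 (-0.0274 to 0.0566) and Vtn (-0.0777 to 0.0731). In the striatum they were Tagln (-0.0142 with limma-voom, -0.2065 with sex, -0.0188 with the replicate block, -0.1201 to 0.1903), Pdgfrb (0.0011 with sex), Acta2 (-0.2057 with sex, -0.0373 to 0.3675), Abcb1a (-0.161 to 0.1432), Des (-0.0519 to 0.0896), Egfl7 (-0.008 to 0.1012) and Notch3 (-0.0154 to 0.1638). Among the members, the replicate block changed no genotype call beyond those named in the results, and in the tissue difference it ended those of Sox17 (adjusted p = 0.12) and Egfl7 (adjusted p = 0.064). In the tissue difference it also added calls of lower endothelial genes, which are not named here.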
